A study of Mus musculus with 1111 samples.

Results

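Tmem119-low and Tmem119-high microglia were the cells at the bottom and at the top of the range of Tmem119, a membrane protein gene used to tell microglia from other brain macrophages. The cells were selected on the measured level of Tmem119 itself, as CPM, its reads scaled by all reads in genes of that cell. Within each of 3 sets of wells, called TH 1, TH 2 and TH 3 in the labels, cells at or below the 25th percentile were Tmem119-low and cells at or above the 75th were Tmem119-high. Of 987 cells with at least 50000 reads and 500 genes, 496 entered the comparison. TH 1 gave 84 cells to each arm, and TH 2 and TH 3 gave 82 to each.

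All cells were microglia isolated from brains of mice aged 3 months, 20 hours after plasma proteins tagged with the dye NHS-Atto647N were injected. They were profiled by Smart-seq2, which makes 1 full-length library from each sorted cell. The labels place each cell, by its dye signal, in plasma none (35.1% of passing cells), plasma low (35.6%) or plasma high (29.4%). Strain, sex and genotype are not given in the labels, the samples used here include no uninjected animals, and each plasma group filled its own columns of every plate, so that group and plate column cannot be told apart. No label ties a cell to an animal, and the meaning of the TH number is not stated, so each arm counts as 1 sample of cells. No test between the arms is therefore given, and each error is the SD over the 3 TH numbers, which are sets of wells and not animals.

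Adult microglia are the resident macrophages of the brain parenchyma. In the undisturbed brain they hold a set of genes often called homeostatic, among them Tmem119, P2ry12, Cx3cr1 and Sall1, which depends on TGF-beta signalling and on transcription factors such as PU.1 (Spi1), Sall1 and Mef2 proteins. Near plaques, in ageing or after injury, microglia lower part of this set and raise another, called disease-associated, with Apoe, Lpl, Tyrobp and Lyz2 among its members.

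Tmem119 was read in nearly every cell, and its level varied widely within each set of wells. The median over passing cells was 4142 CPM in TH 1, 4132 in TH 2 and 3794 in TH 3, and the highest cells reached 12442, 12245 and 13748 CPM. No read of the gene was seen in 1, 9 and 1 cells. The median Tmem119-low cell held 1849, 1911 and 1733 CPM, and the median Tmem119-high cell 6608, 6585 and 6853 CPM. In TH 1 these cells had a median of 321.5 and 1312 Tmem119 reads. In TH 1 the last cell inside the low arm had 2686 CPM and the first outside it 2690. The high arm of TH 1 began at 5570 CPM, with the next cell at 5537. The matching pairs were 2658 and 2662 CPM, and 5372 and 5322 CPM, in TH 2. In TH 3 they were 2383.3 and 2385.3 CPM, and 5404.6 and 5404.3 CPM. The values ran on without a break from one side of each boundary to the other.

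**Figure D1:**
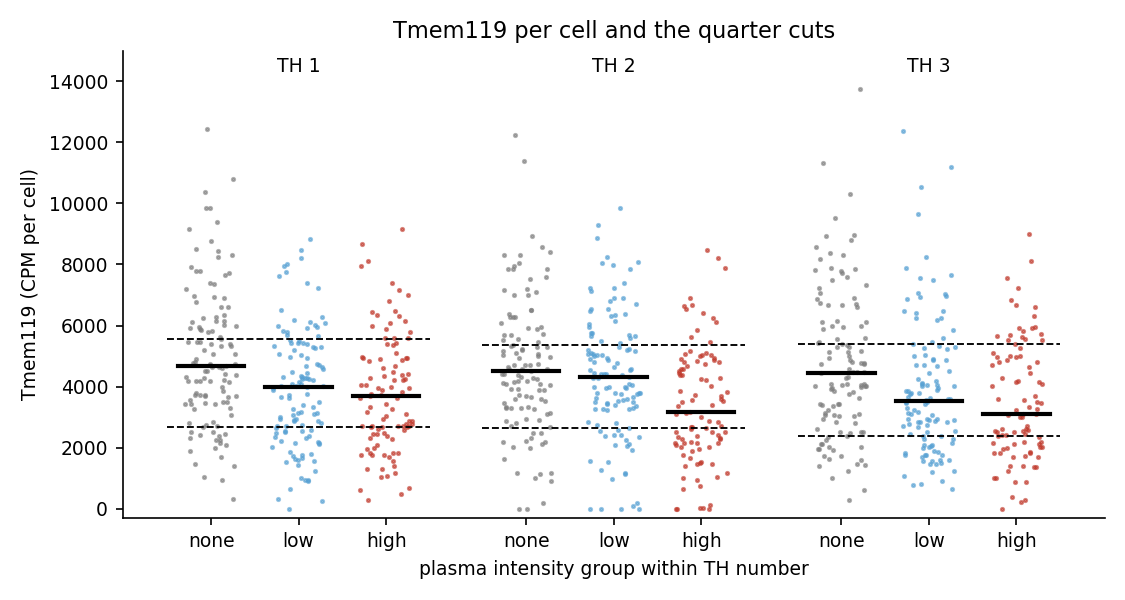
Tmem119 in each of the 987 passing cells (vertical axis, CPM per cell), by TH number and plasma group (horizontal axis, jittered); bars are group medians and dashed lines the 25th and 75th percentiles of each TH number that bound the low and the high arm. The cells form a continuous range, and the median of plasma high (3685, 3163 and 3104 CPM in TH 1, 2 and 3) lies below that of plasma none (4690, 4519 and 4459 CPM) in each TH number.

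The arms were alike in median reads per cell but not in summed reads. Reads per cell had a median of 206503, 352778 and 188379 in Tmem119-low and 190440, 353907 and 209934 in Tmem119-high, and the summed reads in TH 1, 2 and 3 were 25655099, 32226516 and 18029867 in Tmem119-low and 17465334, 33196143 and 20242394 in Tmem119-high, farthest apart in TH 1. The number of genes per cell differed by 73.7 ± 133.1 (Tmem119-low minus Tmem119-high, SD, n = 3), with both signs among the TH numbers. The share of mitochondrial reads was 0.883% ± 0.184 in Tmem119-low and 0.753% ± 0.0903 in Tmem119-high, higher in the low arm in 3 of 3 TH numbers. Microglial genes were abundant in both arms: the summed level of P2ry12, Cx3cr1, Csf1r, Sall1, Siglech and Fcrls was 25966 ± 2077 CPM in Tmem119-low and 29000.2 ± 1964 CPM in Tmem119-high. Of 8 markers of border-associated macrophages 6 were at 0 in all passing cells (Cd163, Pf4, Lyve1, F13a1, Ms4a7 and Cd209f) and the sum of the list was 1.22 ± 2.11 CPM in the low arm and 1.34 ± 2.27 in the high arm. Of 8 monocyte markers 5 were at 0 (Ly6c2, Plac8, Chil3, S100a4 and Fn1), and the sum was 1.94 ± 2.39 and 8.71 ± 12.5 CPM. Each cell was then asked for at least 3 markers of a list at 10 CPM or more. For border-associated macrophages this could not be met, with 6 of 8 markers at 0, so that count shows nothing. For monocytes it needed every marker not at 0, and 0 cells of each arm met it. That allows up to 1.21% of such cells by the limit of 3 counts of the total, or 1.48% by the exact Clopper-Pearson interval at 95% confidence. It does not bound the share of monocytes. The oligodendrocyte list was carried in this sense by 4 Tmem119-low cells and 0 Tmem119-high cells, with a summed level of 201.2 ± 68.9 and 187.1 ± 50.6 CPM. A single Tmem119-low cell carried at least 3 red cell markers, and no cell of the arms carried the endothelial, astrocyte or neuronal list. For neutrophils and lymphocytes the rule could not be met, since 7 of the 8 markers of each were at 0. The summed levels in Tmem119-low and Tmem119-high were 351.6 and 372.6 CPM for neutrophil markers (Csf3r, with the other 7 at 0), 51.6 and 35.2 CPM for lymphocyte markers (Cd79b, with the other 7 at 0) and 284.8 and 316.8 CPM for astrocyte markers (mostly Slc1a3). They were 14.9 and 16.5 CPM for endothelial, 1.42 and 1.53 CPM for neuronal and 1.5 and 0.9 CPM for red cell markers. The part of these cells and transcripts in the results below was not tested.

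The cells of the plasma groups were spread unevenly over the Tmem119 range. Of plasma none cells, 16.4%, 15.9% and 17.1% were Tmem119-low in TH 1, 2 and 3, against 30.7%, 41.7% and 32.3% of plasma high cells. The order was turned at the other end, where 36.2%, 31.9% and 34.2% of plasma none cells and 19.8%, 13.5% and 20.4% of plasma high cells were Tmem119-high. Plasma low cells had means between these, with 25.6% ± 4.48 in the low and 22.2% ± 5.21 in the high arm. They lay between in each TH number at the low end, but at the high end only in TH 2, at 28.2%, and just below plasma high in TH 1 and TH 3, at 18.6% and 19.8%. Counted over all TH numbers, 16.5% of plasma none cells were Tmem119-low (exact Clopper-Pearson interval 12.7 to 20.8% at 95% confidence). For plasma high cells the share was 34.8% (29.4 to 40.6%). These intervals cover counting error only. Seen from the other side, plasma high cells made up 40.8% ± 6.95 of Tmem119-low and 20.9% ± 4.42 of Tmem119-high, and plasma none cells 23% ± 1.26 and 47.6% ± 3.23. Depth moved with the plasma group: the median reads per cell were 217146 ± 53263 in plasma none and 289558 ± 99803 in plasma high. The median mitochondrial share rose from plasma none to low to high in each TH number, with means of 0.604%, 0.819% and 0.975%. Median genes per cell were 1696, 1999 and 1939 in the same order. With the arms drawn within tertiles of reads per cell, 17.6% of plasma none cells were Tmem119-low. Every comparison of the arms below therefore also compares cells with unequal shares of the plasma groups, and the values within each group are given for that reason.

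**Figure D2:**
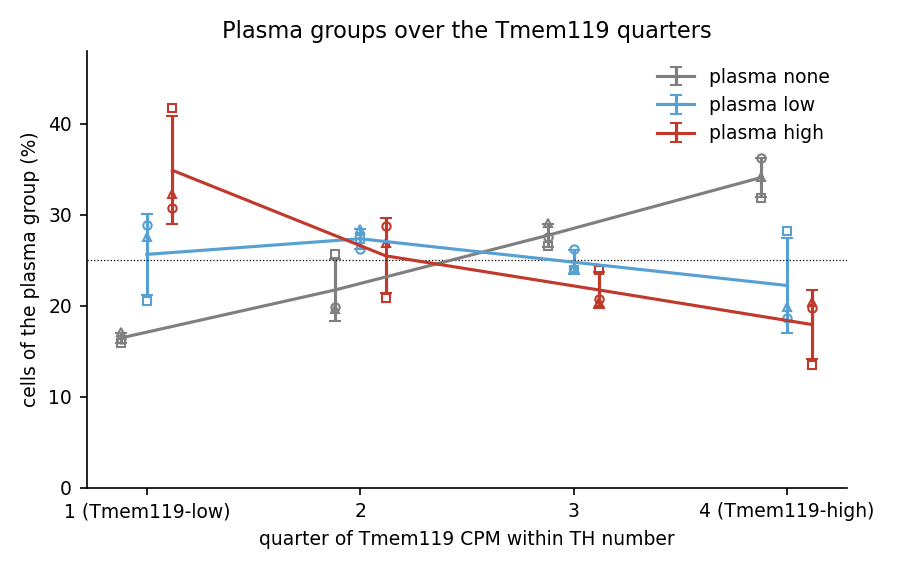
Share of each plasma group's passing cells (vertical axis, percent) in the 4 quartile groups of Tmem119 CPM (horizontal axis); lines and bars are the mean and SD of the 3 TH numbers, open symbols the single TH numbers (circle TH 1, square TH 2, triangle TH 3) and the dotted line marks 25%. Plasma none runs from 16.5% in the lowest group to 34.1% in the highest, and plasma high from 34.9% to 17.9%.

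For the comparison of the arms, reads were summed over the cells of each arm within each TH number, scaled to CPM, and the log2 ratio of Tmem119-low over Tmem119-high was taken on CPM + 1. The homeostatic genes were, as a group, slightly lower in Tmem119-low cells. All 25 genes of the list other than Tmem119 passed the minimum of 5 CPM, 17 had a negative mean ratio, and the median ratio was -0.24. Of these, 13 were lower in 3 of 3 TH numbers and 2 were higher in 3 of 3. Over all 10363 genes of at least 5 CPM the median was 0.01, with 13.2% lower and 13.4% higher in 3 of 3. Of the 25 genes, 23 had a mean of at least 200 CPM. Over all 792 genes at that level the median was -0.03, with 19.4% lower and 15.4% higher in 3 of 3. A lower level in an arm can come from fewer cells with the transcript or from less of it per cell, which sums cannot tell apart.

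Selplg, which encodes the P-selectin ligand PSGL-1, was at 3522, 4237 and 3845 CPM in Tmem119-low and at 5707, 5805 and 4796 CPM in Tmem119-high (TH 1, 2 and 3), a log2 ratio of -0.49 ± 0.19. The arms did not overlap. Selplg is also the neighbour of Tmem119: both lie on the minus strand of chromosome 5, Tmem119 at chr5:113793729-113800516 and Selplg at chr5:113818536-113832644 in the coordinates of the deposited tables (mm10), 18 kb apart. P2ry13, an ADP receptor, was at 1861, 2179 and 1821 CPM in the low and 2529, 3410 and 2468 CPM in the high arm, a ratio of -0.51 ± 0.12 without overlap. Its relative P2ry12, the ADP receptor that guides microglial processes to damage, was at 7397, 8921 and 7897 CPM against 9969, 10649 and 9729 CPM, a ratio of -0.33 ± 0.09, also without overlap. Slc2a5, the fructose transporter GLUT5, had the widest difference among the homeostatic genes of at least 200 CPM, with 432.6, 712.6 and 485.4 CPM in the low and 959.7, 1052 and 876.3 CPM in the high arm, a ratio of -0.85 ± 0.29. At an equal 50000 reads per cell, Slc2a5 was read in 58.9% ± 4.29 of Tmem119-low and 80.2% ± 6.15 of Tmem119-high cells. Upk1b, a uroplakin gene, had a ratio of -1.18 ± 0.70 at a mean level of only 71.9 CPM.

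The windows before the starts of P2ry13 and Slc2a5 are shown because these genes had, after the neighbouring Selplg, the highest correlations with Tmem119 from cell to cell and lie on other chromosomes. They come from RefSeq (GRCm38.p6), with 250 bases ending at the base before the start, on the strand of the gene: chr3:59210883-59211132, minus strand, for P2ry13 and chr4:150119094-150119343, plus strand, for Slc2a5. Capitals mark GAGGAA, a core sequence bound by PU.1, which was searched on both strands (TTCCTC on the other).
P2ry13: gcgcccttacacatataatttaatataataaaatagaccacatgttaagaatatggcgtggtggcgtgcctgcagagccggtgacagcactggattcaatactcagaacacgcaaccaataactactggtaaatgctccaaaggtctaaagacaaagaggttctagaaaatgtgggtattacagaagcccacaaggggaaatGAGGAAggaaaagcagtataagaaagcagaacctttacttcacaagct
Slc2a5: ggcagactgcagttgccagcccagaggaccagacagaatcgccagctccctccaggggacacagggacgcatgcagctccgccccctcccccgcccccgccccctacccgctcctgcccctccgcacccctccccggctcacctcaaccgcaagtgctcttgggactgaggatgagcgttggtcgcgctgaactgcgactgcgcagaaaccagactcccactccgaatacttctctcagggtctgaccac
The P2ry13 window held 1 match and the Slc2a5 window 0. A match was found in 23.3% of all 32851 such windows, in those of 5 of the 19 homeostatic genes with a window and in those of 7 of 21 disease-associated genes. A gene with several windows counted once if any of them matched. The gene counts and the share of windows are therefore unlike measures. These counts describe the letters and nothing about binding.

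Cell by cell, the same genes tracked Tmem119 most closely. Over the cells of each TH number, each thinned to 50000 reads, the Spearman correlation of a gene's CPM with that of Tmem119 was taken for 570 genes read in at least 50% of cells, as a description with no p. All points share the library of their cell, and the arms were cut on the same Tmem119 values. Selplg had the highest correlation, at 0.38, 0.28 and 0.21 in TH 1, 2 and 3, followed by means over the TH numbers of 0.20 for P2ry13, 0.19 for Slc2a5, 0.17 for Lgmn and 0.16 for P2ry12. The median over the 570 genes was 0.007, and 95% of genes lay below 0.10. Within the plasma groups the means were 0.28 for Selplg, 0.20 for P2ry13 and 0.19 for Slc2a5. The lowest were Lars2, the mitochondrial leucyl-tRNA synthetase gene (-0.18), the MHC class I light chain gene B2m (-0.13), Rps4x (-0.12), the integrin regulator Apbb1ip (-0.11) and Tyrobp (-0.11). These correlations are weak.

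The shared locus did not move as a whole. Of the genes starting within 200 kb of Tmem119 with at least 20 CPM, Selplg, Iscu and Coro1c kept 1 sign over the TH numbers, not all in the same direction. Coro1c, a coronin of the actin cytoskeleton, was higher in Tmem119-low, with a ratio of 0.89 ± 0.44, and overlaps 3 predicted genes. Iscu, an iron-sulfur cluster scaffold gene, was lower, with a ratio of -0.49 ± 0.69. Sart3 (-0.05 ± 1.10) and Ssh1 (-0.12 ± 1.44) had both signs.

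Entpd1 (CD39), which degrades extracellular ATP and ADP, had a ratio of -0.43 ± 0.10, with 463, 637.4 and 612.6 CPM in the low and 581.2, 911.9 and 835.2 CPM in the high arm, which overlapped between TH numbers. The secreted matrix protein gene Sparc had a ratio of -0.37 ± 0.13 and its arms did not overlap (2395 to 2558 CPM against 2793 to 3465 CPM). The fractalkine receptor gene Cx3cr1 was at 6076 to 6789 CPM in the low and 7285 to 8115 CPM in the high arm, a ratio of -0.24 ± 0.07. Fcrls, an Fc-receptor-like gene, had a ratio of -0.32 ± 0.11, and Olfml3, a secreted olfactomedin-like protein gene, -0.26 ± 0.18. Gpr34, a receptor for lysophosphatidylserine, had a ratio of -0.27 ± 0.21. For each of these the direction was the same in all TH numbers. P2ry12 and P2ry13 lie within the gene Med12l, Gpr34 within Cask, and Cx3cr1 overlaps several gene models, and whether counting used strand is not given in the sources used here.

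Several other genes of the list had mean ratios near or above 0. Siglech, a sialic acid-binding lectin gene, had a ratio of 0.00 ± 0.02. Csf1r, the receptor for CSF1 and IL-34 on which microglia depend for survival, was higher in Tmem119-low in 3 of 3 TH numbers, at 0.18 ± 0.11, and so was the protease inhibitor gene Cst3, at 0.11 ± 0.12. Pros1, Tgfbr1 and Mertk had ratios of 0.52 ± 0.54, 0.29 ± 0.47 and 0.27 ± 0.55, with both signs among the TH numbers.

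The transcription factors of this programme had a small positive median, with members in both directions. The median of the mean ratios over 17 genes was 0.06 and the medians of TH 1, 2 and 3 were 0.18, 0.18 and 0.12. In 3 of 3 TH numbers 6 were higher and 1 was lower, beside 13.4% and 13.2% of all genes of at least 5 CPM. The median changed sign, to -0.02, when the counts of the TH numbers were pooled. Spi1 (PU.1) had a ratio of -0.15 ± 0.20, Sall1 -0.10 ± 0.40, Irf8 -0.19 ± 0.24, Mef2c -0.04 ± 0.17 and Mef2a 0.10 ± 0.11, each with both signs. Maf was the gene lower in 3 of 3, at -0.22 ± 0.12. Cebpb and Cebpa, C/EBP factors of myeloid cells, were higher in 3 of 3, at 0.67 ± 0.15 and 0.68 ± 0.43, and so were Fli1 (0.36 ± 0.22) and Mef2d (0.83 ± 0.50). Mef2d rested to 40.8% on 1 cell of the low arm.

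Of the TGF-beta pathway, 14 of 16 genes passed the minimum, with a median ratio of -0.10, 4 lower and 1 higher in 3 of 3 TH numbers. Beside these, 13.2% of all genes of at least 5 CPM were lower and 13.4% higher in 3 of 3. The receptor genes Tgfbr1 and Tgfbr2 had ratios of 0.29 ± 0.47 and 0.46 ± 0.62, and the ligand gene Tgfb1 0.03 ± 0.93, all with both signs. The signal transducer Smad2 (-0.95 ± 0.72), the inhibitory Smad7 (-0.94 ± 1.01), the co-receptor Eng (-0.55 ± 0.22) and Nrros, which presents latent TGF-beta on microglia (-0.41 ± 0.41), were lower in 3 of 3. Ski, a repressor of the pathway, was higher in 3 of 3, at 0.38 ± 0.29. The median of the list by TH number was -0.24, -0.26 and 0.17. Its sign was not stable: the list median was 0.045 without TH 2, 0.037 without cells lacking Tmem119 reads and -0.34 without TH 3.

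The disease-associated genes were higher in Tmem119-low cells. Of 25 genes 22 passed the minimum, 21 had a positive mean ratio, 14 were higher in 3 of 3 TH numbers and 0 were lower in 3 of 3, and the median was 0.38, at 0.40, 0.36 and 0.37 in the single TH numbers. Of all genes of at least 5 CPM, 13.4% were higher and 13.2% lower in 3 of 3. For those of at least 200 CPM the shares were 15.4% and 19.4%. Most members of the list differed little. Those chosen after their values were seen include Tyrobp, the DAP12 adaptor of Trem2 (0.38 ± 0.17), the ferritin heavy chain gene Fth1 (0.38 ± 0.10), the tetraspanin gene Cd63 (0.35 ± 0.05) and the lysosomal protein gene Cd68 (0.19 ± 0.13). Trem2 itself had a ratio of 0.04 ± 0.27 and the cathepsin gene Ctsd 0.04 ± 0.13, and Ctsl had the lowest ratio, at -0.10 ± 0.41. Lyz2, which encodes lysozyme, was at 503.6, 484.5 and 575.8 CPM in the low and at 324.5, 260.3 and 213.3 CPM in the high arm, a ratio of 0.98 ± 0.41 without overlap. It was read in 48% ± 3.90 of Tmem119-low and 36.3% ± 4.90 of Tmem119-high cells at 50000 reads.

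**Figure D3:**
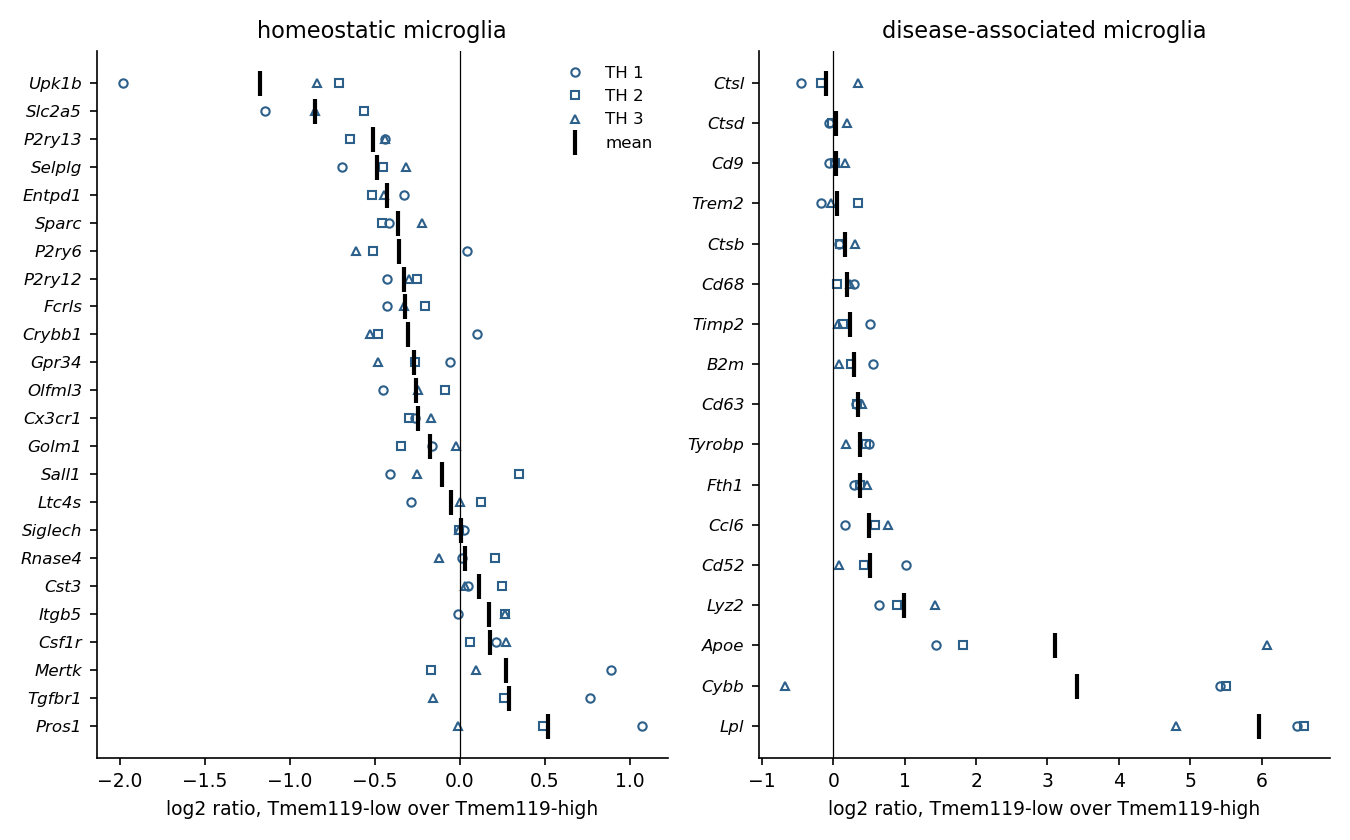
Log2 ratio of Tmem119-low over Tmem119-high (horizontal axis) for the homeostatic (left) and disease-associated (right) genes reported here with a mean of at least 20 CPM; open symbols are the single TH numbers and bars their mean, and the axes differ in scale. Most homeostatic genes lie left of 0, down to -1.18 for Upk1b, and all disease-associated genes but Ctsl have a positive mean, up to 5.97 for Lpl.

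Lpl and Apoe, which act on lipoproteins, stood far from the rest of that list and were carried by few cells. Lpl, lipoprotein lipase, was at 375.2, 98.6 and 127.4 CPM in Tmem119-low and at 3.17, 0.03 and 3.58 CPM in Tmem119-high. It was read in 16.1% of low and 2.42% of high cells, and 1 cell held 51.8% of its reads in the low arm. Over all TH numbers this was 199.9 CPM (exact Poisson interval 196.7 to 203.1) against 1.85 CPM (1.54 to 2.19), intervals of counting error alone. The log2 ratio was 5.97 ± 1.0 with a pseudocount of 1 CPM, 4.62 with a pseudocount of 5, 4.73 with the arms drawn within each plasma group, and 6.32 without the top cell of each sum. Apoe, apolipoprotein E, was at 609.1, 566.2 and 1737 CPM in the low and 223.7, 160.6 and 24.8 CPM in the high arm, a ratio of 3.11 ± 2.57 without overlap. Without TH 3 the ratio of Apoe was 1.63. It was read in 20.2% of low and 11.3% of high cells. Cybb, the NADPH oxidase subunit, had 2866 reads in the low and 694 in the high arm but was read in 2.42% ± 1.22 and 0.407% ± 0.704 of the cells at 50000 reads, with both signs among the TH numbers.

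Ribosomal protein genes were higher in Tmem119-low as a group. Of 82 genes 76 had a positive mean ratio, and 45 were higher and 1 lower in 3 of 3 TH numbers. Among all genes of at least 5 CPM, 13.4% were higher and 13.2% lower in 3 of 3. The median of the list was 0.24, at 0.19, 0.39 and 0.16 by TH number. Rps4x was at 279.3, 293.4 and 250.6 CPM in the low and 182.6, 196.5 and 110.7 CPM in the high arm, a ratio of 0.79 ± 0.33. Rpl5 had the lowest ratio of the list, at -0.36 ± 0.72. Genes of this family have many near-identical copies, so their counts are uncertain. The share of a cell's reads in ribosomal protein genes had a median of 1.16% ± 0.0914 in the low and 1.02% ± 0.144 in the high arm. All 8 measured genes of the mitochondrial genome had a positive mean, 5 of them in 3 of 3 TH numbers, with medians of 0.52, 0.84 and 0.06 by TH number. mt-Co1, a cytochrome c oxidase subunit gene, was at 4647, 4956 and 3401 CPM against 3283, 3763 and 2626 CPM, a ratio of 0.42 ± 0.07, and mt-Nd5 had a ratio of 0.69 ± 0.52.

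The remaining lists gave no clear direction. For all genes of at least 5 CPM the shares in 3 of 3 were 13.4% higher and 13.2% lower. The medians were 0.01 for lysosomal genes (24 genes, 5 higher and 4 lower in 3 of 3), 0.15 for endocytosis and plasma protein receptors (22 genes, 4 and 4), 0.03 for complement (10 genes, 1 and 3) and 0.08 for antigen presentation (14 genes, 2 and 1). They were 0.16 for iron handling and oxidative stress (18 genes, 4 and 1), 0.30 for the interferon response (9 genes, 1 and 0), 0.27 for inflammatory cytokines and NF-kB (15 genes, 2 and 3) and -0.09 for nuclear long RNAs (10 genes, 1 and 2). For immediate early genes, which respond to dissociation of the tissue, the median was -0.38 (14 genes, 2 and 3), at -0.03, 0.07 and -0.69 by TH number. For proliferation the median of the mean ratios was -0.30 (9 genes, 3 and 1) while the medians of the TH numbers were all positive (0.04, 0.14 and 0.10), and the inflammatory list had TH medians of -0.23, -0.13 and 0.12 beside its positive one. The interferon list had TH medians of -0.30, -0.02 and 1.18, and without TH 3 its median was -0.15. Among genes of these lists of at least 20 CPM the extremes included Jun (-1.15 ± 0.37), the complement receptor gene C5ar2 (-0.59 ± 0.39) and the early endosome tether Eea1 (0.77 ± 0.11), each with the same sign in 3 of 3. Eea1 rested to 33% on 1 cell of the low arm. Cd74, the invariant chain of MHC class II, had a ratio of 2.16 ± 3.36 with both signs.

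Across all genes, the largest ratios belonged mostly to genes read in few cells. They were picked by 4 limits: a mean ratio of 1 or more in size, in 1 direction in all TH numbers, at a mean level of 20 CPM or more, with at least 10% of the cells of an arm holding a read. A gene could meet the last limit through the arm where it was higher alone, and the shares of cells below are of that arm. Of 5491 genes tested, 170 (3.1%) passed as higher in Tmem119-low and 2.59% passed as lower. Beside Lpl and Apoe the 8 largest named genes that were higher were Inppl1, Wdr11, Glipr1, Mettl6, Wipf1 and Zfp932, with ratios from 2.32 to 2.95, each read in 10.1 to 29.4% of the low arm's cells. Those lower were Stradb, Cdk5, Atxn7l1, Slc39a9, Epm2aip1, Kdm5d, Ago3 and Dicer1, from -2.30 to -2.01, each read in 10.1 to 21% of the high arm's cells. The last 2 encode an Argonaute protein and the enzyme that cuts small RNA precursors: Dicer1 was at 16.9, 6.93 and 22.2 CPM against 74.3, 42.5 and 64.6 CPM. Among the genes past these limits the median share of the higher arm's reads held by 1 cell was 16.9%. When genes were picked by the same limits on 2 TH numbers and read in the third, 51.5 to 56.3% had the same direction. In the third, those picked as higher had a median ratio of 0.15 on TH 1, 0.14 on TH 2 and 0.04 on TH 3. Where they were picked it was 1.29, 1.29 and 1.35. The limits on level and on cells with a read were also applied over all TH numbers, the third included. Without any 1 TH number 5.98 to 6.81% of genes passed as higher and 5.14 to 5.62% as lower, since the same sign was then asked of fewer sets. At a minimum of 100 CPM, 18 genes (0.988%) passed as higher and 11 (0.604%) as lower.

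Well-read genes differed less. Of 792 genes with a mean of at least 200 CPM, 33 were higher (4.17%) and 37 lower (4.67%) by at least 0.5 in log2 with the same sign in 3 of 3. The largest that were higher were Apoe, R3hdm1 (1.36 ± 0.39), Lyz2, Cpsf6 (0.92 ± 0.24), Rps4x, the integrin gene Itgb1 (0.77 ± 0.69), the adaptor gene Skap2 (0.77 ± 0.42) and the actin-membrane linker Msn (0.72 ± 0.92). The largest that were lower were the guanylate-binding protein gene Gbp7 (-1.30 ± 0.70), Brwd1 (-1.09 ± 0.86), Tfg (-0.93 ± 0.69), Slc2a5, the ganglioside synthase gene St3gal5 (-0.81 ± 0.35), Golt1b (-0.80 ± 0.43), Arl14ep (-0.77 ± 0.75) and the Y-linked Eif2s3y (-0.75 ± 0.49). Picked by ratio and sign on 2 TH numbers, with the level taken over all 3, 52 to 75.7% of such genes had the same direction in the third. With the arms drawn within each plasma group, 16 were higher and 23 lower, of which 8 and 13 were shared with the counts above. Without any 1 TH number there were 42 to 65 higher and 45 to 86 lower, and with the counts of the TH numbers pooled 63 were lower.

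Within the plasma groups, the median of the homeostatic genes was negative in all 3, but in plasma none so was that of all genes. Plasma none had a list median of -0.20 ± 0.15, plasma low one of -0.20 ± 0.09 and plasma high one of -0.14 ± 0.09, and it was negative in each TH number of each group. Over all genes of at least 5 CPM the medians were -0.21 ± 0.05, 0.01 ± 0.11 and 0.18 ± 0.17 in the same order, and over those of at least 200 CPM, the level of most homeostatic genes, -0.14 ± 0.08, -0.05 ± 0.07 and 0.03 ± 0.03. Of the 16 lists 13 had a negative median in plasma none, 8 of them below that of the homeostatic genes, while 0 lists were below it in plasma low and 1 in plasma high. Selplg, P2ry13, P2ry12 and Slc2a5 were lower in the low arm in 9 of 9 sets, a set being 1 plasma group in 1 TH number. Of the 792 genes of at least 200 CPM, 15 were lower in 9 of 9 sets (1.89%) and 3 were higher in 9 of 9 (0.379%). The count over 9 sets was added after the data had been seen. Of those 15 genes, 6 were among the 23 homeostatic genes at that level, including the 4 above and Sparc. The other 9, named because they met this count, were the lysosomal protease gene Lgmn (-0.21 ± 0.04), Bin2 (-0.43 ± 0.11), the chaperone gene Hspa5 (-0.61 ± 0.27), Btg2 (-0.69 ± 0.17), Gna15 (-0.67 ± 0.27), Il16 (-0.64 ± 0.23), Tmbim6 (-0.33 ± 0.21), Grb2 (-0.24 ± 0.17) and 9530068E07Rik (-0.85 ± 0.06). Higher in 9 of 9 were Rps4x, Cept1 (0.54 ± 0.20) and Serinc3 (0.30 ± 0.10). The highest of the 9 ratios of Selplg was -0.04 and the lowest -0.63.

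The median ratio of the disease-associated genes was not positive in all groups. Its mean over TH numbers lay above that of all genes in each group, but not in every single TH number. Plasma none had a list median of -0.08 ± 0.26, plasma low one of 0.25 ± 0.25 and plasma high one of 0.54 ± 0.40, with 8, 16 and 19 of the 22 genes positive, beside the medians over all genes given above, which also were lowest in plasma none and highest in plasma high. In TH 1, 2 and 3 the ratios of Apoe were -4.70, -5.71 and 2.26 for plasma none, 2.94, 0.57 and 5.18 for plasma low, and 0.27, 0.82 and 5.99 for plasma high. The mean ratio of Lyz2 was -0.20 ± 0.64 for plasma none, 1.19 ± 0.85 for plasma low and 1.09 ± 1.0 for plasma high. The ribosomal list had medians of -0.03 ± 0.15, 0.19 ± 0.29 and 0.31 ± 0.26, and the mitochondrial genome -0.06 ± 0.68, -0.01 ± 0.82 and 0.51 ± 0.03. The difference between the groups was not tested, and the arms of a group were small, with 57 Tmem119-low cells in plasma none and 52 Tmem119-high cells in plasma high, over all TH numbers. With the arms drawn anew within each group and all groups summed, the median of the disease-associated list was 0.30 and that of the homeostatic list -0.20.

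**Figure D4:**
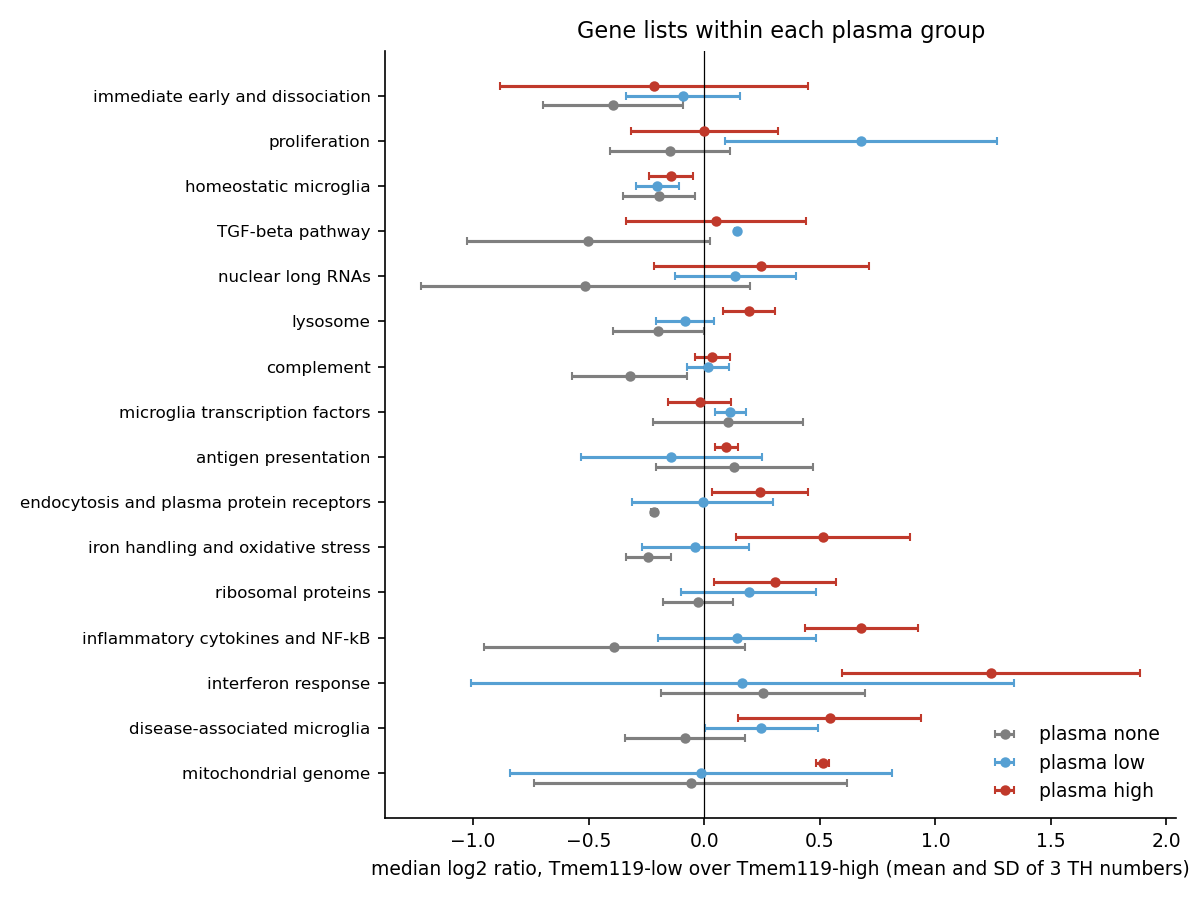
Median log2 ratio of Tmem119-low over Tmem119-high for the 16 gene lists (horizontal axis) within plasma none, plasma low and plasma high; points are the mean and bars the SD of the 3 TH numbers. The homeostatic list lies below 0 in all 3 groups (-0.20, -0.20 and -0.14), and the disease-associated list runs from -0.08 in plasma none to 0.54 in plasma high, where the medians over all genes of at least 5 CPM are -0.21 and 0.18.

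The middle of the Tmem119 range, which entered neither arm, showed the same order for the closest genes but hardly any difference for most. With the counts of all 4 quartile groups scaled together, from low to high, Selplg was at 3887 ± 359.6, 4471 ± 252.1, 4788 ± 393.5 and 5462 ± 558.7 CPM, and P2ry12 at 8111 ± 780.6, 9032 ± 346.6, 9455 ± 898 and 10165 ± 479.4 CPM. P2ry13 was at 1963 ± 197.3, 2399 ± 122.5, 2529 ± 199.4 and 2816 ± 529.5 CPM. Slc2a5 was at 546.2 ± 149.5, 736.5 ± 29.3, 799.8 ± 153.7 and 967.5 ± 88.4 CPM. For each of these 4 genes the second and the third group differed by less than the SD of the third, and the ratio of the second over the third group was -0.10 ± 0.06 for Selplg, -0.08 ± 0.17 for P2ry13 and -0.11 ± 0.23 for Slc2a5. Lyz2 was at 523.9 ± 48.4 CPM in the lowest group and at 333.1, 328.7 and 267.3 CPM in the others. For the lists, the second over the third group gave medians of -0.04 (homeostatic) and 0.09 (disease-associated), with 16 of 25 genes negative and 18 of 22 positive. In TH 1, 2 and 3 these medians were -0.02, -0.07 and 0.04 for the homeostatic and 0.20, -0.06 and 0.13 for the disease-associated genes, so both lists had both signs. Of the 70 genes of at least 200 CPM past the rule above, 54.5% of the higher and 54.1% of the lower had the same direction between the middle groups.

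**Figure D5:**
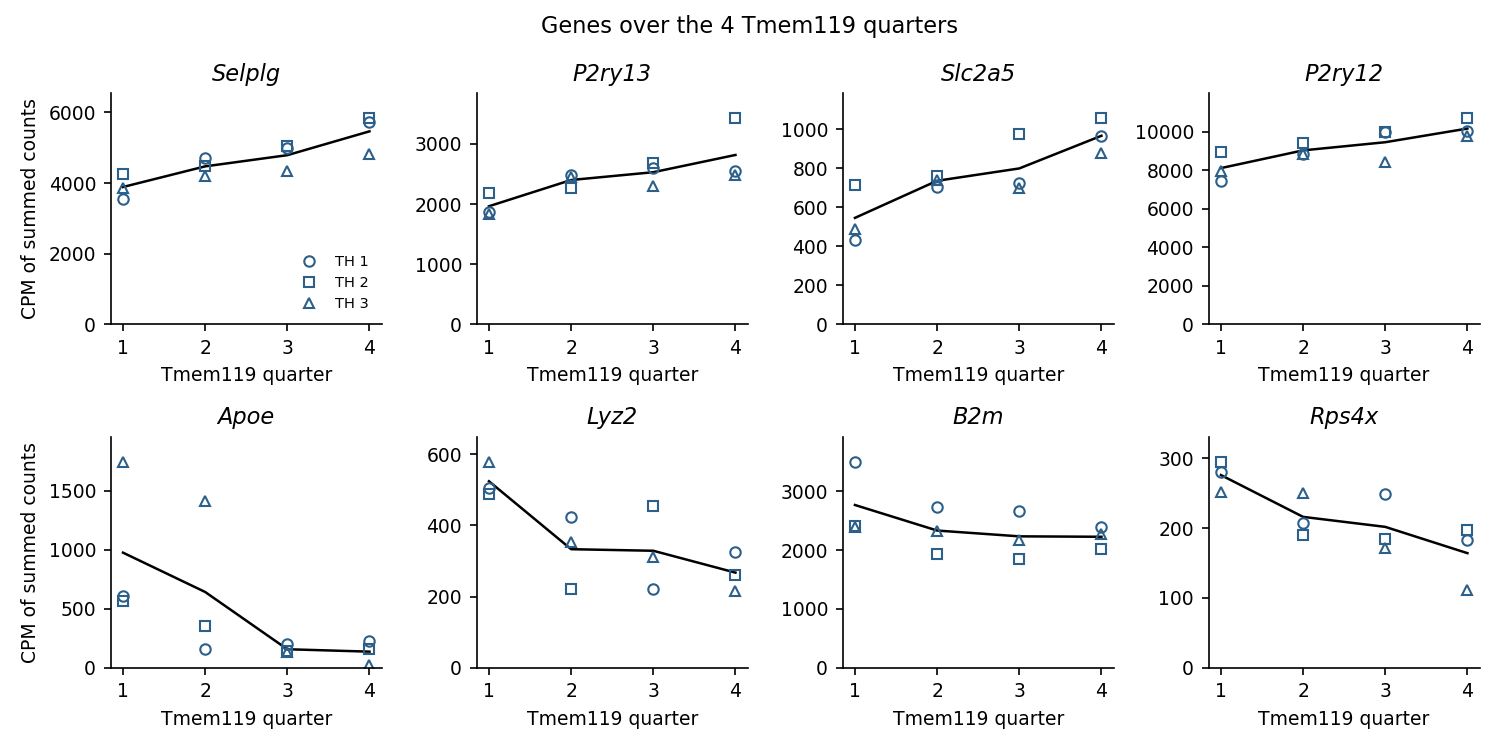
Level of 8 genes (vertical axes, CPM of counts summed over cells, each starting at 0) over the 4 quartile groups of Tmem119 within TH number (horizontal axes, 1 is Tmem119-low and 4 Tmem119-high); open symbols are the 3 TH numbers and lines their mean. The means of Selplg, P2ry13, Slc2a5 and P2ry12 increase over the groups, while Apoe, Lyz2, B2m and Rps4x are highest in group 1, with Apoe spread from 25 to 224.8 CPM in group 4.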

How the data were processed

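Smart-seq2 libraries of single microglia were measured, 1 per cell. Of 1111 labelled cells, 1045 had a column in the deposited tables and 66 were not analysed here. The values are read counts per gene as deposited by the authors for 35583 genes. In 1 column, 2 values were not whole, so that column was treated as deposited expected counts and rounded. Per the submitters' processing notes, bcl2fastq, Trim Galore, STAR 2.5.3a and Seurat were used with the mm10 build. How reads were counted, and whether by strand, is not given in the sources used here. The column names of TH 2 and TH 3, per the file headers, carry a note on top-hit alignments that TH 1 lacks.

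Cells with at least 50000 reads in genes and 500 genes were kept (987), and no pair held identical counts. Doublets were not called. Counts were summed over the cells of each arm within each TH number, giving 6 sums, and scaled with TMM factors (edgeR 4.0.16, R 4.3.3). The log2 ratio used a pseudocount of 1 CPM. Ratios were taken within TH number, which therefore pairs the arms. The shared number comes from the labels. No test across genes was run, because no label names an animal. The script was tested on simulated data with known ratios.

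The members, the 16 gene lists and the 10 marker lists were chosen with earlier results of these data known. Named genes were the 8 largest ratios in each direction under each of the 2 size limits, every homeostatic, transcription factor and TGF-beta gene of at least 20 CPM that the text describes, and the extremes of the other lists. Genes starting within 200 kb of Tmem119 and the 5 highest and 5 lowest correlations were added. Other disease-associated and mitochondrial genes, and those with 1 direction in 9 of 9 sets, were named after their values were seen. Clone-named genes were left out of the largest ratios. Some genes, which still count in their lists, are not reported here. Alternatives covered scaling (all reads in genes, DESeq2 1.42.0 size factors), pseudocount, depth, genes per cell, plasma group, cells with no Tmem119 read, weight of cells, the top cell, pooling, low values and each TH number left out.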

Additional observations from a re-analysis of the deposited data

Results flagged for a closer look

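Of 468 comparisons of the named genes and lists between the 3 pairs of plasma groups, 5 (1.07%) had ratios of Tmem119-low over Tmem119-high with one sign in all TH numbers of one group and the opposite sign in all TH numbers of another. None of these differences was tested. Ctsb, the cathepsin B gene, had a ratio of -0.43 in plasma none and 0.23 in plasma low. Smad4, the common SMAD of TGF-beta signalling, had a ratio of -4.28 in plasma none and 1.04 in plasma low, at a mean of 27.3 CPM and with a read in 8.06% of Tmem119-low and 9.68% of Tmem119-high cells. Over all genes of at least 5 CPM the median ratio was itself -0.21 in plasma none and 0.18 in plasma high, and the list medians that follow lie near or beyond these. The median of the lysosomal list was -0.20 in plasma none and 0.19 in plasma high. The endocytosis and plasma protein receptor list had medians of -0.22 and 0.24 in the same groups. The iron handling and oxidative stress list had medians of -0.24 and 0.51.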

How the results depend on the processing

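Scaling by all reads in genes or by DESeq2 size factors moved no list median beyond its spread over TH numbers, and of 2002 alternative values for the named genes 1932 stayed within that spread, 70 moved beyond it and 0 changed sign as called values. List medians within the spread could still turn in sign. That of TGF-beta (-0.10) was 0.037 without cells lacking Tmem119 reads, 0.045 without TH 2 and -0.34 without TH 3. Endocytosis and plasma protein receptors (0.15) had -0.0078 within plasma groups. Without 1 TH number, the genes past the size rule were 5.98 to 6.81% higher and 5.14 to 5.62% lower, and those of at least 200 CPM 5.29 to 8.19% higher and 5.75 to 10.8% lower. At a minimum of 100 CPM, 0.988% were higher and 0.604% lower. Of the genes of at least 200 CPM, 2.44% were higher with cells thinned to 50000 reads, 2.01% with arms drawn within plasma groups and 2.03% with the mean of CPM over cells, and 2.89% were lower within plasma groups. With no replicate block, that is with counts pooled over TH numbers, 7.98% were lower, the transcription factor median was -0.020 (opposite in sign to 0.06) and that of proliferation 0.013.

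The transcription factor median was 0.20 with thinned cells, 0.096 within tertiles of reads, 0.011 within tertiles of genes per cell, 0.10 within plasma groups, 0.094 without cells lacking Tmem119 reads, 0.13 with the mean over cells and 0.0074 to 0.16 without 1 TH number. The homeostatic median was -0.20 within plasma groups, -0.28 with the mean over cells and -0.22 to -0.18 without 1 TH number. The disease-associated median was 0.41, 0.40, 0.42, 0.30 and 0.33 with thinned cells, tertiles of reads, tertiles of genes, plasma groups and the mean over cells, 0.42 without the top cell and 0.32 to 0.42 without 1 TH number. The proliferation median was -0.19 with a pseudocount of 5 CPM, 0.42 with thinned cells, -0.20 and 0.36 within tertiles of reads and of genes, 0.38 within plasma groups, 0.47 with the mean over cells, -0.062 without the top cell and -0.28 to 0.13 without 1 TH number. Antigen presentation was at 0.35 without the top cell, against 0.079 in the main setting. It was at -0.0033 with thinned cells, -0.050 within plasma groups, -0.021 with pooled counts and -0.030 to 0.21 without 1 TH number. The inflammatory list was at 0.57 within tertiles of genes. Without 1 TH number the interferon list ran from -0.15 to 0.81, the inflammatory list from -0.15 to 0.35, the lysosomal from 0.022 to 0.067 and complement from -0.060 to 0.054. Plasma none cells were Tmem119-low in 17.6% within tertiles of reads and 17.1% without cells lacking Tmem119 reads, and Tmem119-high in 31.5% within tertiles of genes. The cause of these shifts was not tested. Levels near 20 CPM rest on few cells per arm, which limits what single genes show.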
